A study of Homo sapiens with 4 samples.

Results

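The genes described here are those of cellular iron handling and the STEAP reductases, read on expression arrays in the cell line NOMO-1, which was established from acute monocytic leukaemia. Of 10 listed genes, 8 were found among the 18417 genes that carried a single symbol on the array: STEAP3, STEAP4, TFRC, FTL, SLC11A1, SLC11A2, SLC40A1 and NCOA4. FTH1 and IREB2 had no probe set under a single symbol in the annotation used and were not analysed here. Each of the 8 genes had 1 probe set, so no choice between probe sets was needed, and all 8 passed the filter on dim genes. The genes were chosen by a list drawn up with intensities of these arrays already known. Which values led to each entry is stated for STEAP4 alone, whose difference between the 2 controls is the reason to keep them apart.

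RNA came from cells infected with lentivirus at a multiplicity of infection of 1 and was taken 48 h after selection. There were 4 arrays, each from a different construct. The controls, labelled ZFX wild type, were a GFP virus (LEN-GFP) and a scrambled hairpin (SCR). Cells labelled ZFX knock-down carried 1 of the hairpins ZFX-SH1 and ZFX-SH3, both directed at ZFX, a zinc finger transcription factor. A short hairpin RNA is processed in the cell into a small RNA that lowers the matching mRNA. All 4 cultures therefore carried a lentiviral insert, and LEN-GFP was the single one whose virus is not described as a hairpin. No construct was measured on more than 1 array and nothing in the labels says that the cultures were set up separately, so the errors below mix the spread of constructs with that of arrays.

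ZFX itself was lower on both hairpin arrays, with log2 intensities of 10.65 on LEN-GFP, 10.66 on SCR, 10.13 on SH1 and 10.12 on SH3. The hairpins differed from each other by 0.02 on that scale, and the group difference of -0.53 (SE 0.10) had a limma adjusted p of 0.797. With each hairpin alone against both controls, ZFX was called lower on SH3 (-0.54, limma adjusted p = 0.0185) and not on SH1 (-0.52, limma adjusted p = 0.121). Of 13 markers chosen for a monocytic myeloid leukaemia line, 11 had a probe set under a single symbol and all 11 passed the dim filter. LYZ lay between 14.20 and 14.37 and CD68 between 13.32 and 13.46 in log2 intensity, while the monocyte receptor CD14 lay between 7.27 and 7.62. The median intensity was 184.8 to 189.8 on the 4 arrays.

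Cells take up iron mainly as ferric iron on transferrin, which binds the transferrin receptor and is carried into endosomes. There a STEAP reductase turns ferric into ferrous iron, and a divalent metal transporter of the SLC11 family moves it into the cytosol. Iron that is not used is stored in ferritin, whose receptor for breakdown in lysosomes is NCOA4, and it leaves the cell through ferroportin, the product of SLC40A1. Iron regulatory proteins bind hairpin loops in the mRNAs of several of these genes when iron is scarce, which blocks translation of ferritin and ferroportin and stabilises the mRNA of the transferrin receptor. Macrophages and monocytes handle much of the body's iron because they recycle it from old red cells.

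STEAP4 and NCOA4 are the genes on which the results turn, so the bases before their start sites are shown, as given by RefSeq for GRCh38.p14. Promoter windows of 300 bases (250 before and 50 after a start) were found for 9 of the 10 listed genes, with 14 windows in all, and none for FTH1. In the STEAP4 sequence, which spans chr7:88306895-88307144 on the minus strand, the capitals mark a match to TTGCNNAA, a form of the site of C/EBP factors, that begins 66 bases before the start. The NCOA4 sequence spans chr10:46030624-46030873 on the minus strand, before the outermost of its starts, and holds none of the 4 motifs searched. TFRC is shown for 60 bases around ACGTG, the core of the hypoxia response element, at chr3:196082146-196082205 on the minus strand. FTL is shown for 28 bases at chr19:48965331-48965358 on the plus strand, inside its transcript, where CAGTG is the loop of the iron responsive element.
STEAP4: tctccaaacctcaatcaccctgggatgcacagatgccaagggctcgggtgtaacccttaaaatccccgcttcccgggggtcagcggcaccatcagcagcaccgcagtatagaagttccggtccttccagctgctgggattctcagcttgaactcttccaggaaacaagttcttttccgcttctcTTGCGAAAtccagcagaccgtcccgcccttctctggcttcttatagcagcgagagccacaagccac
NCOA4: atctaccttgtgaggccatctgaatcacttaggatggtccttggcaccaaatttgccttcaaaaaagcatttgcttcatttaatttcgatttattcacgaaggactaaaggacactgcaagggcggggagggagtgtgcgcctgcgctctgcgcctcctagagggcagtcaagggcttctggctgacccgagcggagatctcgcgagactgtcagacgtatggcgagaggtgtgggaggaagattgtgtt
TFRC: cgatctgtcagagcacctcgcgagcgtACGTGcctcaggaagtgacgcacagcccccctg
FTL: ctgtctcttgcttcaaCAGTGtttggac

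The motifs were searched on both strands, and matches were counted over 35116 windows of the same length. AGGCCT, the core of the known ZFX motif, was in 0 of the 14 windows of the listed genes and in 10.9% of all windows. TTGCNNAA was in 1 of the 14, that of STEAP4, and in 10.5% of all. ACGTG was in 2, those of TFRC and FTL, and in 21.4% of all. TGACNNNGC, the antioxidant response element, was in 1, a second start of NCOA4, and in 13.3% of all. No match of one motif overlapped a match of another in these windows. The core of the iron responsive element, a bulged C, then 5 bases of any kind, then the loop CAGTG, was searched on the sense strand of the first 50 transcribed bases. It was found there for FTL alone among the 9 genes with a window and for 1.71% of all windows.

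Values below are the deposited linear intensities or their log2. A difference between log2 values of 1 is a doubling. Across the 12892 genes tested, limma called 0 genes (0%) between the knock-down and control groups at an adjusted p under 0.05, and 779 genes (6.04%) had an unadjusted p under 0.05. Of the 8 members 0 were called and 1, SLC40A1, had an unadjusted p under 0.05. When each hairpin was set alone against both controls, limma called 52 genes for SH1 (0.403%) and 1719 for SH3 (13.3%). For SH1 these were 0.155% higher and 0.248% lower, and for SH3 6.33% higher and 7% lower. Of the members, 0 were called for SH1 and 2 for SH3, namely STEAP4 higher and NCOA4 lower. Between the hairpins, 4.01% of genes were called higher on SH3 and 4.48% lower, and the same 2 members were called, in the same directions. In these fits the lone array was assumed to vary like the control pair, which supplied 1 residual degree of freedom. Both comparisons share the same controls.

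**Figure D1:**
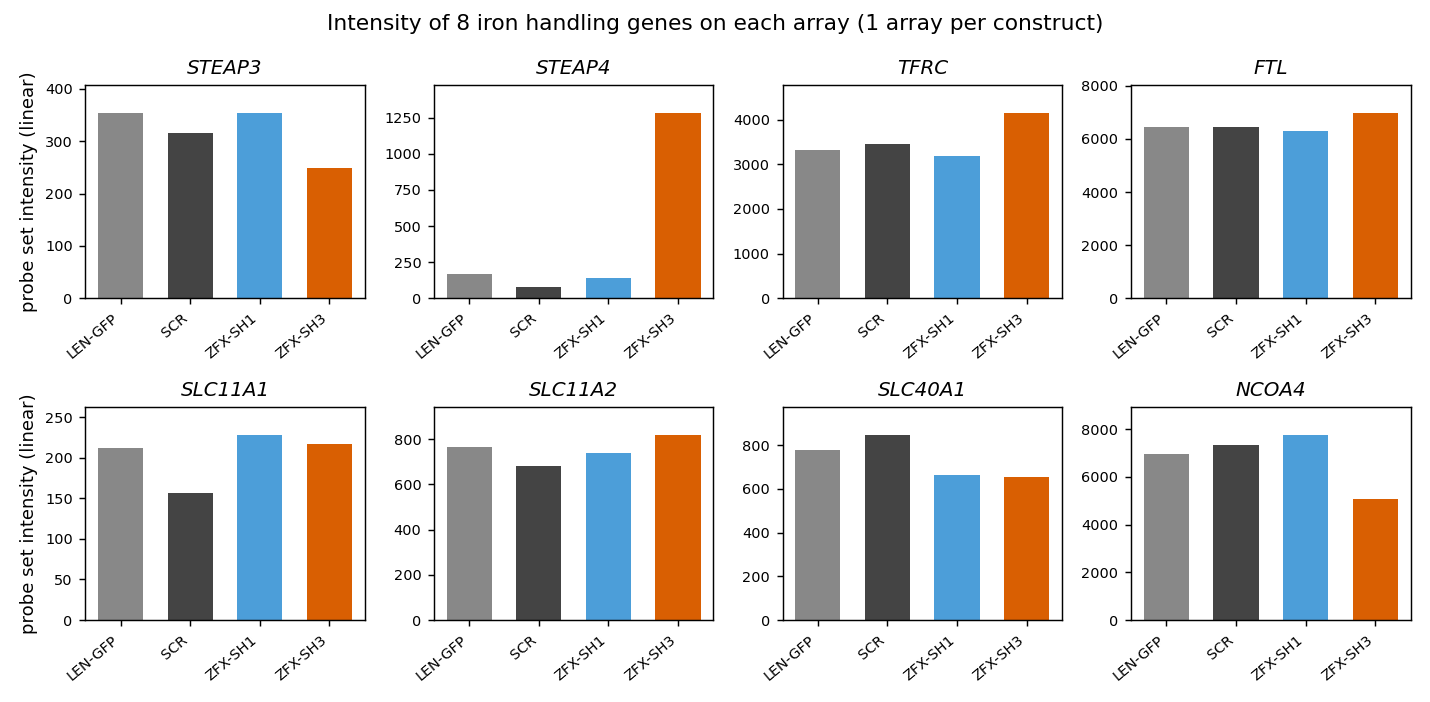
Linear probe set intensity of the 8 members on each of the 4 arrays, with 1 bar per array, 1 array per construct and a y axis from 0 in each panel that is scaled to the gene. STEAP4 stood at 1285 on SH3 against 77.1 to 169 on the others, and NCOA4 was lowest on SH3.

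The reductases were described first. STEAP4, a metalloreductase of the plasma membrane and endosomes that is induced in inflammation and in fat cells, had an intensity of 169 on LEN-GFP, 77.1 on SCR, 137 on SH1 and 1285 on SH3. SH3 stood far above the other 3 arrays, and SH1 lay between the controls. The SCR value, at a log2 intensity of 6.27, lay below 6.70, the limit that the mean of a gene had to reach to be tested. Differences that use this value therefore have no firm size, among them those from the control mean and that between the controls. No fold of a hairpin against SCR alone is given.

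STEAP4 rose on SH3 by 3.49 in log2 intensity against the mean of the controls (SE 0.36, limma adjusted p = 6.91e-04), and by 2.92, or 7.59-fold, against LEN-GFP alone. The difference from LEN-GFP alone was the largest among the 12892 genes tested. On SH1 the difference was 0.27 (SE 0.36, limma adjusted p = 0.937). The controls were apart by -1.13 in log2 (SCR minus LEN-GFP), a difference that belongs to the choice of the genes and has no test. Its size ranked 5 among the 12892 genes tested. The SE of 0.36 rests mostly on the spread of other genes, through a prior worth 7.85 degrees of freedom against 1 residual. It is small beside the gap between the controls of STEAP4, and the adjusted p values of STEAP4 for single hairpins lean on that prior.

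SH1 was at 0.812-fold of LEN-GFP for STEAP4 and above the dim SCR value. With both hairpins against both controls the difference was 1.88 (SE 1.09, limma adjusted p = 0.797), and it was 0.27 without SH3 and 3.49 without SH1. SH3 minus SH1 was 3.23 (SE 0.41, limma adjusted p = 0.00301), where 8.49% of all genes were called.

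STEAP3, the endosomal ferrireductase that serves the transferrin cycle in red cell precursors, had an intensity of 354 on LEN-GFP, 316 on SCR, 354 on SH1 and 248 on SH3. SH3 was the lowest array and SH1 matched LEN-GFP. The difference of SH3 from the controls was -0.43 (SE 0.15, limma adjusted p = 0.0972) and that of SH1 was 0.08 (SE 0.15). Neither passed, and the group difference was -0.17 (SE 0.20). STEAP3 was thus at 74.2% of the control mean on SH3, the array on which STEAP4 was called higher.

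The other 3 members of the STEAP family, STEAP1, STEAP1B and STEAP2, were on the array and all were left out as dim. Their log2 intensities lay between 5.47 and 6.79 on every array. STEAP1 was highest on SH3, at 6.79 against 6.53 on SH1, 6.59 on SCR and 6.66 on LEN-GFP. STEAP2 lay at 5.66 to 5.67 on SCR, SH1 and SH3 and at 5.86 on LEN-GFP.

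Iron uptake came next. TFRC, the transferrin receptor through which dividing cells take up iron, had an intensity of 3319 on LEN-GFP, 3451 on SCR, 3189 on SH1 and 4153 on SH3. SH3 was the highest array and SH1 the lowest, so the hairpins lay on either side of the controls. The difference was 0.30 on SH3 (SE 0.09, limma adjusted p = 0.0772) and -0.09 on SH1 (SE 0.09, limma adjusted p = 0.906). SH3 minus SH1 was 0.38 (SE 0.11, limma adjusted p = 0.0687) and did not pass. That value passed with the arrays quantile-normalized again (0.40, limma adjusted p = 0.0441).

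SLC11A2, the divalent metal transporter DMT1 that passes ferrous iron out of the endosome, had an intensity of 766 on LEN-GFP, 681 on SCR, 739 on SH1 and 820 on SH3. SH1 lay between the controls and SH3 above both. The differences were 0.03 on SH1 (SE 0.14) and 0.18 on SH3 (SE 0.14), and neither passed.

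SLC11A1, also known as NRAMP1, is the related transporter of the phagosome in macrophages and neutrophils, where it withdraws metal from engulfed microbes. Its intensity was 212 on LEN-GFP, 157 on SCR, 229 on SH1 and 218 on SH3. SCR stood apart below the other 3 arrays, and both hairpin arrays lay above both controls, SH3 by 0.04 in log2 over LEN-GFP. The group difference was 0.29 (SE 0.16, limma adjusted p = 0.797). Without SCR it was 0.08 and without LEN-GFP it was 0.51, so its size depended on which control was used. The controls differed by -0.43.

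Storage followed. FTL, the light chain of ferritin, had an intensity of 6449 on LEN-GFP, 6456 on SCR, 6303 on SH1 and 6988 on SH3. The range over the 4 arrays was 0.15 in log2, or 1.11-fold, the narrowest among the 8 members. The differences were -0.03 on SH1 (SE 0.08) and 0.12 on SH3 (SE 0.08, limma adjusted p = 0.424). The iron responsive element shown above acts on translation of this mRNA, which an expression array does not measure. FTL also has processed pseudogenes in the genome, so part of its signal may come from near-identical transcripts.

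NCOA4, the cargo receptor that delivers ferritin to the lysosome for release of its iron, had an intensity of 6970 on LEN-GFP, 7341 on SCR, 7780 on SH1 and 5064 on SH3. SH1 was above both controls and SH3 below both. NCOA4 fell on SH3 to 70.8% of the control mean (log2 -0.50, SE 0.08, limma adjusted p = 0.00559). On SH1 it was at 108.8% (log2 0.12, SE 0.08, limma adjusted p = 0.753). SH3 minus SH1 was -0.62 (SE 0.09, limma adjusted p = 0.00658), and the group difference of -0.19 (SE 0.21) did not pass. The controls differed by 0.07.

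**Figure D2:**
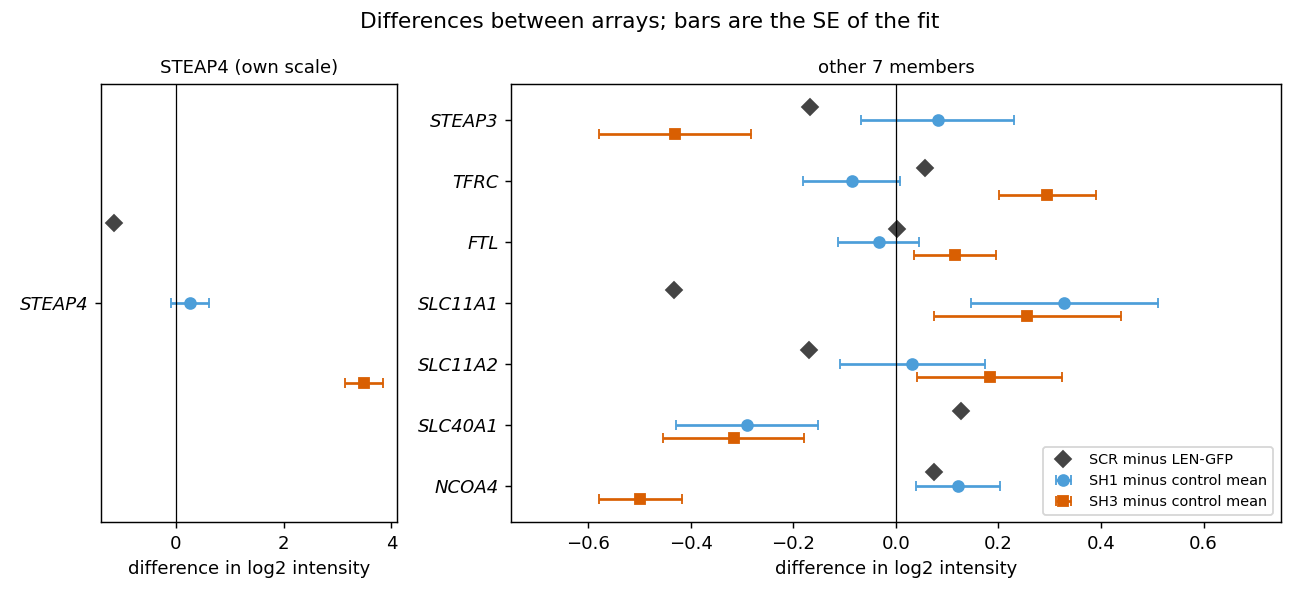
Difference in log2 intensity for each member: SCR minus LEN-GFP (diamonds, no error), SH1 minus the control mean (circles) and SH3 minus the control mean (squares), with bars for the SE of the fit and a separate scale for STEAP4. STEAP4 stood at 3.49 on SH3 and -1.13 between the controls, both of which use its dim SCR value. NCOA4 stood at -0.50 on SH3 and 0.12 on SH1.

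SLC40A1, or ferroportin, the exporter through which iron leaves the cell, had an intensity of 777 on LEN-GFP, 849 on SCR, 664 on SH1 and 652 on SH3. Both hairpin arrays lay below both controls, with a gap of 0.23 in log2 between the nearest arrays, and the hairpins were within 0.03 of each other. The group difference was -0.30 (SE 0.12), or 81.0% of control, with an unadjusted p of 0.0498 and a limma adjusted p of 0.797. It ranged from -0.37 to -0.24 with each array left out in turn. SLC40A1 and SLC11A1 were the members whose groups did not overlap, 2 of 8, and over all tested genes the groups did not overlap on 37.2%, with the hairpins above on 18.2% and below on 19%.

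Over the 8 members the median difference was 0.07 between the groups, 0.06 on SH1 and 0.15 on SH3. Over all tested genes these medians were 0.00, 0.00 and 0.00. On SH3 5 members lay above the control mean and 3 below. Unadjusted p was under 0.05 for 5 of the 8 on SH3, where this held for 26.3% of all genes, and for 0 of the 8 on SH1, where it held for 10% of genes.

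A wider set of 127 other iron genes on the array was grouped into 8 lists, and 106 of them passed the dim filter. Between the groups 0 of the 106 were called, and 0 on SH1. On SH3, 32 were called, 14 higher and 18 lower, and the background is the 13.3% given above. Their median difference was -0.01 between the groups, and both hairpin arrays lay above both controls on 24 and below on 33, where over all tested genes they lay above on 18.2% and below on 19%. Named in each list are the genes with the widest gap between hairpin and control arrays.

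Among 14 tested genes of iron uptake, 2 were called higher and 2 lower on SH3. SLC39A14, a zinc and iron importer of the ZIP family, fell on SH3 by 1.71 in log2 (SE 0.14, limma adjusted p = 3.28e-04). Its log2 intensity was 8.97 on LEN-GFP, 8.89 on SCR, 8.66 on SH1 and 7.22 on SH3, so both hairpin arrays were below both controls. MELTF, the transferrin relative melanotransferrin, fell on SH3 by 0.85 (limma adjusted p = 0.00711), with -0.33 on SH1. The ferritin receptor SCARA5 was within 0.14 of the control mean on each hairpin.

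Of 12 genes for iron storage and chaperones, 2 were called higher and 2 lower on SH3. PCBP3 and PCBP4 belong to a family of poly(C)-binding proteins whose first members hand iron to ferritin. They fell on SH3 by 0.96 and 0.53 (limma adjusted p = 0.00598 and 0.0261), with -0.40 and -0.27 on SH1. GLRX3, a cytosolic glutaredoxin that carries iron-sulfur clusters, was at -0.26 on SH1 and -0.28 on SH3 and was not called.

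Iron export and its control by BMP signals gave 1 gene called higher and 4 lower of 9 tested on SH3, with a median of -0.51 there, 0.05 on SH1 and -0.18 between the controls. CP, HEPH and HEPHL1, the genes of this list for export itself, were left out as dim. The 9 tested genes were thus those of BMP signals and systemic control, and their median does not describe export. SMAD5, a signal carrier of BMP receptors, was at 10.27 and 10.19 on LEN-GFP and SCR and at 9.63 and 9.73 on SH1 and SH3. It fell on SH3 by 0.51 (limma adjusted p = 0.0317), and its -0.60 on SH1 was not called (limma adjusted p = 0.106). ACVR1, a type I BMP receptor, was at 0.47 on SH1 and 0.43 on SH3, neither of them called. FURIN, the protease that matures hepcidin, rose on SH3 by 0.62 (limma adjusted p = 0.0365), with 0.24 on SH1.

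Iron sensing had 1 gene called higher and 2 lower of 10 on SH3. ACO1, the cytosolic aconitase that becomes iron regulatory protein 1 when it loses its cluster, fell on SH3 by 0.52 (limma adjusted p = 0.0481), with -0.33 on SH1. SKP1, part of the ubiquitin ligase that removes iron regulatory protein 2, was at -0.29 on SH1 and -0.24 on SH3. EPAS1, the hypoxia factor HIF-2 alpha whose mRNA bears an iron responsive element, was at 0.17 and 0.27. SKP1 and EPAS1 were not called.

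Heme metabolism had 2 genes called higher and 5 lower of 18 on SH3. BLVRA, biliverdin reductase, fell on SH3 by 0.72 (limma adjusted p = 0.0120), with -0.25 on SH1. BACH1, a heme-binding repressor of ferritin and heme oxygenase genes, rose on SH3 by 0.52 (limma adjusted p = 0.0226), with 0.19 on SH1. ALAS1, the first enzyme of heme synthesis, was at 0.25 on SH1 and 0.33 on SH3 (limma adjusted p = 0.0736).

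Of 25 genes of iron-sulfur cluster assembly 0 were called higher and 3 lower on SH3. HSPA9, the mitochondrial chaperone that helps cluster transfer, fell there by 0.61 (limma adjusted p = 0.00682), with -0.43 on SH1. LYRM4 was at 0.16 and 0.21 and CIAO1 at -0.33 and -0.13, on SH1 and SH3, and neither was called.

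Ferroptosis is a form of cell death driven by iron-dependent lipid peroxides. The list was not split into genes that promote it and genes that limit it. A count by direction therefore does not describe ferroptosis itself, which was not tested. Of 18 genes for ferroptosis and lipid peroxide control, 6 were called higher and 0 lower on SH3. ALOX5, the leukotriene-forming lipoxygenase of myeloid cells, rose by 0.68 (limma adjusted p = 0.00773), with 0.22 on SH1. NQO1, a quinone reductase, rose on SH3 by 0.46 (limma adjusted p = 0.0432), and its 0.40 on SH1 was not called. GCLM, a subunit of the enzyme that starts glutathione synthesis, was at -0.38 on SH1 and -0.28 on SH3 and was not called.

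Markers of other cells were read beside these results, since in bulk RNA fewer cells of a type and less RNA per cell cannot be told apart. The log2 of the summed intensity of 10 erythroid markers, of which 4 passed the dim filter, lay between 10.30 and 10.33 on the controls. On the hairpins that sum lay between 10.35 and 10.36. Among these markers HBB was at 6.38 on LEN-GFP, 6.96 on SCR, 7.10 on SH1 and 6.60 on SH3. The other erythroid markers had a range of at most 0.32. For 8 markers of mature macrophages, of which 3 passed, the log2 of the sum was 9.69 and 9.77 on the controls, 9.71 on SH1 and 9.93 on SH3. Of these 8, MSR1, a scavenger receptor left out as dim, was at 7.25 on SH3 against 5.80 to 5.95 elsewhere, and the other 7 had a range of at most 0.32 over the 4 arrays. For 8 T and NK cell markers, of which 2 passed, it was 12.18 and 12.25 on the controls and 11.97 and 11.91 on SH1 and SH3, with NKG7 called lower on SH3 (-0.34, limma adjusted p = 0.0435). NKG7 carried that sum, at 12.02 and 12.09 on the controls and 11.78 and 11.71 on SH1 and SH3. The other T and NK markers lay between 5.12 and 7.12, and all of them but CD8A were left out as dim. CD8A, CD3D, CD247 and KLRD1 lay below both controls on both hairpins, with gaps of -0.11, -0.04, -0.01 and -0.02 in log2. CD2 lay above both controls, with a gap of 0.07, and for CD3E and GNLY the groups overlapped. The sum of the 4 B cell markers lay between 9.65 and 9.68, and that of the 8 epithelial or stromal markers between 11.15 and 11.33. MS4A1, a B cell marker left out as dim, was at 6.04 on SH3 against 5.33 to 5.34 elsewhere. The other B cell markers had a range of at most 0.125. None of these markers has a value that marks it as absent on this array.

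Of the 11 tested markers of the line itself, 2 were called on SH3, 1 higher and 1 lower, and 1 on SH1, beside 13.3% and 0.403% of all genes. The other 9, among them LYZ, CD68, CD14, SPI1 and CEBPA, were not called on SH3. MPO, the myeloperoxidase of immature myeloid cells, fell there by 1.02 (limma adjusted p = 2.48e-04), with log2 intensities of 13.30, 13.36 and 13.30 on LEN-GFP, SCR and SH1 and 12.31 on SH3. ITGAX, an integrin of monocytes and dendritic cells, rose by 0.65 (limma adjusted p = 0.0149). The growth factor receptor CSF1R of monocytes was called on SH1 (limma adjusted p = 0.0355), at 9.92 against 9.04 on LEN-GFP and 8.89 on SCR, and not on SH3, at 9.17. Their part in the values of STEAP4 and NCOA4 was not tested.

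The genes most like a member in profile were found for the 3 members of widest range by the Euclidean distance of log2 values over the 4 arrays, each gene centred on its own mean. With 4 arrays many genes can be close by this measure. That a neighbour is highest or lowest on the same array as the member follows from how it was picked. For STEAP4 the nearest were CD22 (distance 0.80), P2RY14 (0.94) and ADGRE3 (0.98). The median over all tested protein-coding genes outside the members was 3.06. CD22, a lectin receptor of the Siglec family, was at 7.74, 7.17, 7.22 and 10.14 on LEN-GFP, SCR, SH1 and SH3. The other two, a purinergic receptor and an adhesion receptor, were also highest on SH3.

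For NCOA4 the nearest were LACC1, DMXL2 and CLEC2A (distances 0.04, 0.04 and 0.04, median over those protein-coding genes 0.51). DMXL2, linked to the acidification of vesicles, was at 12.08, 12.16, 12.29 and 11.63 on the arrays in the same order. For SLC11A1 they were KCNIP2, HGF and FAM177A1 (0.05, 0.07 and 0.07, median 0.47). HGF, hepatocyte growth factor, was at 8.46, 8.06, 8.62 and 8.60, so that SCR stood apart for it as for SLC11A1.

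**Figure D3:**
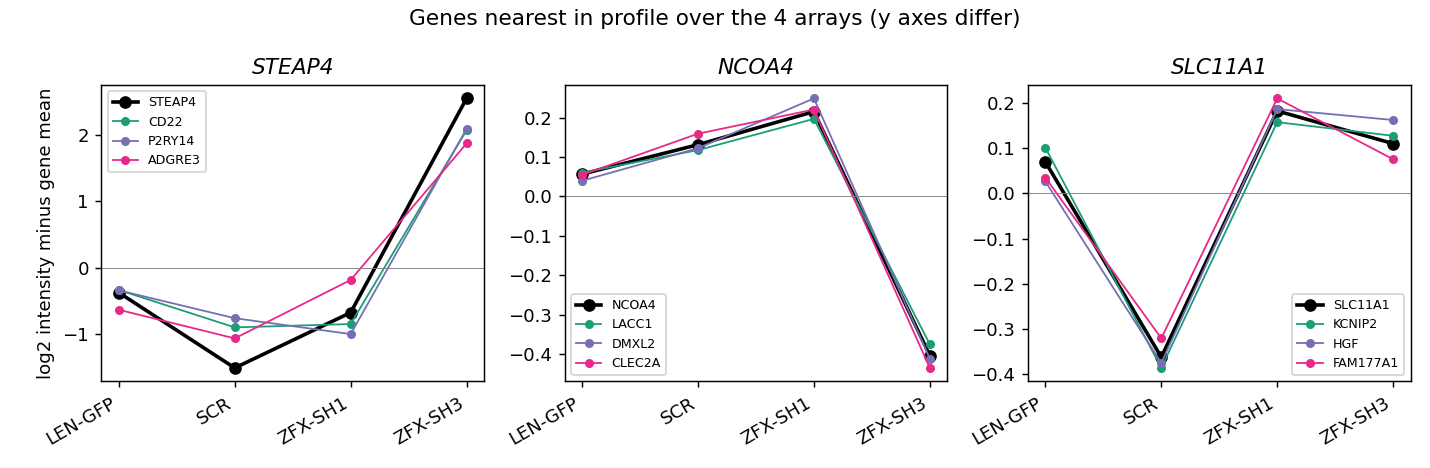
Log2 intensity minus the mean of the gene over the 4 arrays, for STEAP4, NCOA4 and SLC11A1 (black) and the 3 genes nearest to each (colours), with y axes that differ between panels; lines join the arrays only to guide the eye. STEAP4 and its neighbours are highest on SH3, NCOA4 and its neighbours lowest there, and SLC11A1 and its neighbours lowest on SCR.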

How the data were processed

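The authors deposited 1 table of linear intensity values for 33297 probe sets on 4 arrays. Affymetrix Expression Console 1.1 and RMA are named in the submitters' processing notes. The sources used here do not say how the values came to be linear. RMA usually includes a quantile step, which hides changes in total RNA. Fold changes of dim genes are also compressed in RMA values. Per the labels, 200 ng of RNA was amplified and labelled with biotin.

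The log2 of each intensity was taken without an offset. Of the probe sets, 19460 had 1 symbol, 1754 several and 12083 were not named. The brightest probe set stood for its gene. The lowest 30% of genes by mean log2 (5525 genes, under 6.70) were left out, and 12892 were tested with limma 3.58.1 in R 4.3.3 (lmFit, eBayes with an intensity trend, two-sided, Benjamini-Hochberg over all tested genes, threshold 0.05). The group fit had 2 residual degrees of freedom and a prior worth 2.95, the fit of single hairpins 1 and 7.85.

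The members and lists were chosen with earlier results of these data known, so calls on them are not independent support. Named were all members, ZFX, per list up to 3 tested genes of widest gap between hairpin and control arrays, and the 3 nearest protein-coding profiles for the 3 members of widest range. Of the marker genes, those named were chosen after their values were seen. Alternatives covered the dim filter, the probe sets of a gene, the trend, the scaling between arrays, an offset of 16 and each array left out. The number of arrays limits the precision.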

Additional observations from a re-analysis of the deposited data

Results flagged for a closer look

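This check covered the members, ZFX and the list genes of widest gap. For 3 of these, the hairpins differed from each other in limma, with the control pair and the prior giving the spread. Genes named for other reasons lie outside this count, and some of them, such as MPO and PTGS2, also differed between the hairpins. STEAP4 was 3.23 higher in log2 intensity on SH3 than on SH1 (SE 0.41, adjusted p = 0.00301). NCOA4 was at -0.62 in the same comparison (SE 0.09, adjusted p = 0.00658), and SLC39A14 at -1.44 (SE 0.17, adjusted p = 0.00184). Each hairpin was measured on 1 array, so a difference between hairpins and one between single cultures or arrays cannot be told apart.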

How the results depend on the processing

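The calls of STEAP4 and NCOA4 on SH3 and between the hairpins held under each alternative that tested them. NCOA4 came closest to the threshold, at adjusted p of 0.0418 on SH3 and 0.0449 between the hairpins. With the lowest 50% of genes left out, STEAP4 and SLC11A1 were not tested, so 1 member was called on SH3 and 1 between the hairpins. The 8 members kept their direction in each comparison under the alternatives that used all 4 arrays. Leaving out SH3 turned the group difference of 4 members, which with each array left out in turn ran from -0.431 to 0.0817 for STEAP3, -0.0861 to 0.295 for TFRC, -0.0337 to 0.115 for FTL and -0.498 to 0.121 for NCOA4. With arrays left out of the group comparison, between 0 and 1698 genes were called (54 without SH3, 1698 without SH1) and between 0 and 2 members, the 2 without SH1. SH1 calls came to 20 with no dim filter, 4 without the trend, 144 with quantile normalization repeated and 23 with arrays centred on their medians, which also gave 688 genes between the hairpins. Centring turned SH3 minus SH1 to 0.0078 for ZFX, 0.0081 for SCARA5 and 0.0029 for GLRX3, and repeated quantile normalization turned SCARA5 to 0.0162. The cause of these shifts was not tested. Leaving out a control leaves no residual degree of freedom for a single hairpin, so only values against each control were given. No paired analysis was possible because the labels give the arrays no replicate numbers. The table holds no detection call, which limits what STEAP4 on SCR can show.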

Other observations

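Other iron genes called on SH3 alone are given as values, chosen after they were seen. MT1X, a metallothionein, rose on SH3 by 0.69 (SE 0.08, limma adjusted p = 0.00136) and SLC25A37, the mitochondrial iron importer mitoferrin-1, by 0.57 (SE 0.09, adjusted p = 0.00582). PTGS2, the inducible cyclooxygenase, rose by 1.49 (SE 0.16, adjusted p = 7.97e-04) and GCH1, the first enzyme of tetrahydrobiopterin synthesis, by 0.85 (SE 0.14, adjusted p = 0.00606). UROS, an enzyme of heme synthesis, fell by 0.96 (SE 0.12, adjusted p = 0.00140), and SLC46A1, a folate and heme transporter of the membrane, by 0.96 (SE 0.14, adjusted p = 0.00331). On SH1 none of these 6 was called in limma.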
